A study of Mus musculus with 6 samples.

Results

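The features that flank *Khdrbs1*, the gene of the RNA-binding protein Sam68, were described by their distance from it in wild-type and double knockout cortex. All features of the deposited table that lie wholly within 10 Mb on either side of the gene were taken (chr4:119703169-139742304, mm10), and the 2 features that overlap the gene itself were left out. This gave 699 of the 59484 features of the table, 339 with a gene symbol and 360 without, of which 338 lie at lower and 361 at higher coordinates than *Khdrbs1*. PolyA+ RNA had been sequenced from the cortex of 3 wild-type mice and 3 mice lacking both Sam68 and SLM2 (Sam68:Slm2 dKO, here dKO), all at embryonic day 18.5, with no treatment, and the study keeps all its mice as C57BL/6. The study describes dKO animals as the offspring of Sam68+/-:Slm2-/- parents, a cross that gives no wild-type littermates. Nothing in the labels says which embryos share a litter, so *P*-values measure the spread between these 6 samples only. The source of the DNA beside the targeted gene is not given in the sources used here.

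Sam68 and SLM2 are paralog proteins of the STAR family that bind RNA and set which alternative exons are kept in neuronal transcripts. Genes that lie side by side on a chromosome are inherited together and may share enhancers, and a long transcript can run into its neighbour. Ordering the features by distance asks whether those beside the targeted gene differed between the genotypes more often than features elsewhere. *Khdrbs1* is transcribed from the minus strand, so the features at lower coordinates lie beyond its 3′ end and those at higher coordinates beyond its start.

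As examples at 3 distances, of members that DESeq2 called lower in dKO and limma did not call, chosen after their values were seen, the 250 bases before the annotated start are given for *Sync* (0.39 Mb away; chr4:129287371-129287620, plus strand), *Trnp1* (3.75 Mb away; chr4:133498551-133498800, minus strand) and *Rims3* (8.81 Mb away; chr4:120854549-120854798, plus strand), from RefSeq on GRCm38.p6, 5′ to 3′ on the strand of the gene. Capitals mark matches, on either strand, to the GC box (GGGCGG) and the CCAAT box (CCAAT), and the TATA box (TATAAA) was searched as well. No match overlaps another.
Sync: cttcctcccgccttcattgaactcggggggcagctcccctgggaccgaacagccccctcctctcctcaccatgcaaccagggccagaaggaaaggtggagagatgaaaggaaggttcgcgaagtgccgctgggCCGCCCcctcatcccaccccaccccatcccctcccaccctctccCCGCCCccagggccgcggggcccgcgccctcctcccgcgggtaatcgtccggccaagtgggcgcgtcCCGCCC
Trnp1: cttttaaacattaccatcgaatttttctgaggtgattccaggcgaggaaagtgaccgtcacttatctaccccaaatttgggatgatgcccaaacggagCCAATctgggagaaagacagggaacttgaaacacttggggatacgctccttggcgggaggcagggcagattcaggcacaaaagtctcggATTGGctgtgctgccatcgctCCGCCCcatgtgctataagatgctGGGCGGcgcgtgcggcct
Rims3: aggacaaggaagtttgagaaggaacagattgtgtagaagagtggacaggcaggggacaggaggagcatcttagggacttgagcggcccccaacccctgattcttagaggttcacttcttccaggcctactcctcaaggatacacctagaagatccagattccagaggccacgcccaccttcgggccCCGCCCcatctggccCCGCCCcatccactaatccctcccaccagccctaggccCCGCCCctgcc
The GC box was found 3 times before *Sync*, 2 times before *Trnp1* and 3 times before *Rims3*, and 32.7% of the 32851 promoter windows of this length in the table hold it. The CCAAT box was found 2 times before *Trnp1* only, against 33.8% of all windows, and the TATA box before none of the 3, against 12.4%. The windows hold 19, 13 and 6 CpG dinucleotides, where the median of all windows is 6. These matches describe the letters and are not evidence of binding.

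The authors deposited a normalized count for each feature, which is its number of reads divided by a size factor of the library. The reads behind the values were recovered, and numbered 32966884 to 39654253 in a wild-type library and 31837922 to 40896541 in a dKO library. *Khdrbs1* had 8231, 8436 and 7974 normalized counts in the wild-type embryos and 114, 197 and 146 in the dKO embryos, so 1.86% of its mean level remained. The unnamed feature inside it had 43.7, 34.4 and 23.7 against 0 in each dKO library. The deviation of a feature from its group mean was positively correlated with exonic length in wild-type replicate 1 and dKO replicate 1 (Spearman rho 0.29 and 0.35 across 13975 features that share a library). It was negatively correlated in the other 4 (-0.24 to -0.10, with -0.24 in wild-type replicate 3). Deviations cancel within a group, so the signs of its libraries are not independent. Marker genes of cortical projection neurons were detected in all libraries, with all 8 of 8 tested, and the summed level was 98119 to 131945 in wild-type and 110339 to 145095 in dKO. The summed level of 6 cortical progenitor markers did not overlap between the genotypes, with 6454 to 7233 in wild-type and 7847 to 8939 in dKO. By immunofluorescence the study reports the other direction, with fewer SOX2-stained and TBR2-stained cells in the dKO cortex at E18.5. A sum of RNA levels and a count of stained cells are different measures. Of genes that mark neighbouring tissue, 2 of 6 for choroid plexus and 1 of 5 for thalamus and hindbrain reached a mean of 10. In bulk tissue, fewer cells of a type and less RNA per cell cannot be told apart.

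Differences between the genotypes were tested with limma on log2(normalized count + 1) over all 18970 features with a mean of at least 10, a scale that understates the change of low features. Of the 699 members, 302 passed this filter, 254 with a symbol and 48 without. A further 201 were at 0 in all 6 libraries and 196 were detected below it. Among the 302, 11 reached a mean of 10 in only 1 of the genotypes, and 95 overlap another tested member, so that reads could be split between them. By limma no member was called in either direction: 0 of 302 had an adjusted *P*-value under 0.05, against 0.1% of all features tested. The smallest adjusted *P*-value was 0.0900, for *Iqcc*. edgeR on the recovered reads called 0 (0.0843% of all features). DESeq2 called 7 of 302, all lower in dKO (1.07% of all features, and 0.749% called lower). At an unadjusted *P*-value under 0.05 from limma there were 47 members, 20 higher and 27 lower in dKO, or 15.6% against 11.5% of all features.

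The wild-type and dKO libraries did not overlap in 58 members, or 19.2%, against 16.4% of all features tested. Of these, 28 were higher in dKO, or 9.27% against 7.89%, and 30 were lower, or 9.93% against 8.48%. The median log2 fold change of the 302 members was -0.01, and of all features it was 0.00. The median size of the change was 0.16 on the log2 scale for the members and 0.15 for all features, and 34 members, or 11.3%, differed by at least 1.5-fold, against 10.9%. The log2 fold changes of the flank lay around 0 as those of all features did, and the size of the change was not ordered by distance (Spearman rho -0.05, Pearson r -0.03, across 302 members that share the same 6 libraries). Low features had the larger fold changes (Spearman rho -0.53 between mean level and size of change).

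**Figure D1:**
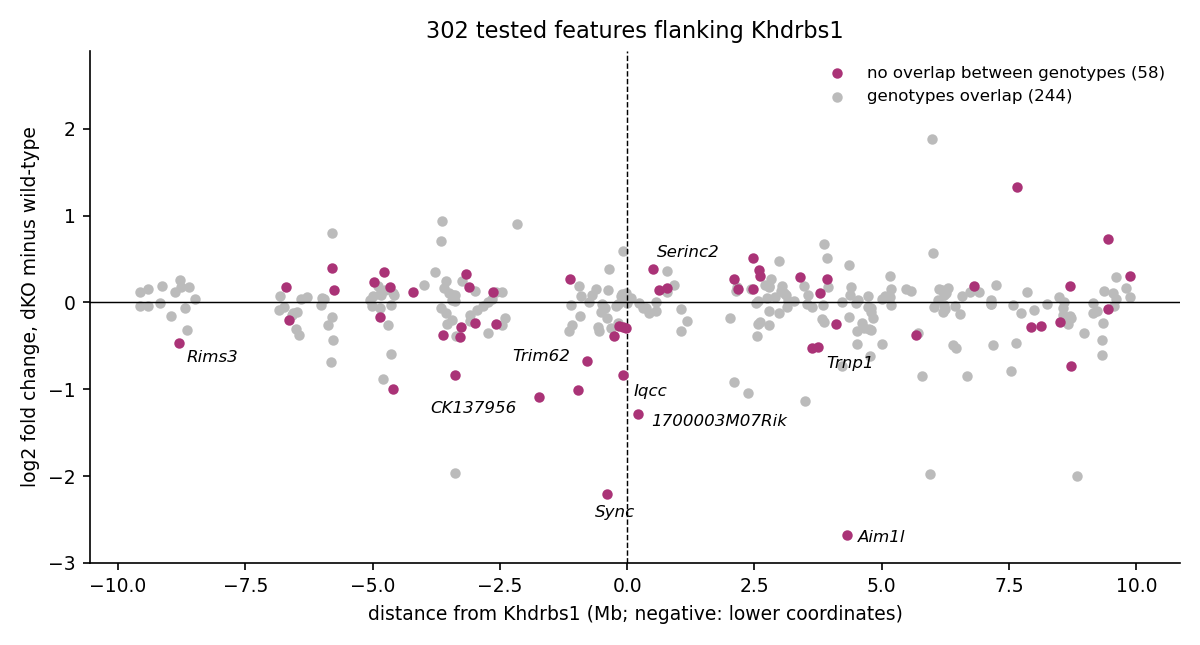
Log2 fold change (dKO minus wild-type) of the 302 tested members against the distance from *Khdrbs1* in Mb, with negative distances for lower coordinates. Purple points are the 58 members whose genotypes do not overlap, and grey points are the other members. The cloud lies around 0 at all distances, and the named members below it lie at distances from 0.08 to 8.81 Mb.

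Within 0.5 Mb of *Khdrbs1*, 28 of 52 features were tested, and 18 of the 28 differed by less than 1.2-fold. In 7 of them, or 25.0%, the genotypes did not overlap, and all 7 were lower in dKO, against 8.48% of all features that were lower without overlap. They are *Sync*, *Zbtb8b*, *Hdac1*, *Tmem234*, *Iqcc*, *1700003M07Rik* and the unnamed feature GSMG0065104, which overlaps *Txlna* and *Kpna6*. *Sync* passed the filter through wild-type alone. The log2 fold change was below 0 in 19 of the 28, or 67.9% against 49.4% of all features, with a median of -0.05. At an unadjusted *P*-value under 0.05 from limma, 5 were lower (*Sync*, *Hdac1*, *Tmem234*, *Iqcc* and *1700003M07Rik*) and 1 was higher (*Zbtb8os*), or 21.4%. Of all features, 11.5% passed this threshold, 6.58% as lower and 4.92% as higher, and *Sync* had to differ to pass the filter. Without both replicates numbered 1, an alternative chosen after seeing the data, 6 were lower and 1 was higher at that threshold, which 9.37% of all features passed in this setting. Among the near members that did not overlap there, 14 were lower and 4 higher. The 7 lower and 0 higher without overlap became 11 and 1 without wild-type replicate 1, 9 and 4 without wild-type replicate 2, and 10 and 3 without dKO replicate 1. Fewer values have to separate when libraries are left out, so these counts cannot be set beside the 8.48%. Over all 302 members, the count without overlap rose from 58 to 132 without both replicates numbered 1. The shares of all features without overlap in these settings are not given here.

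**Figure D2:**
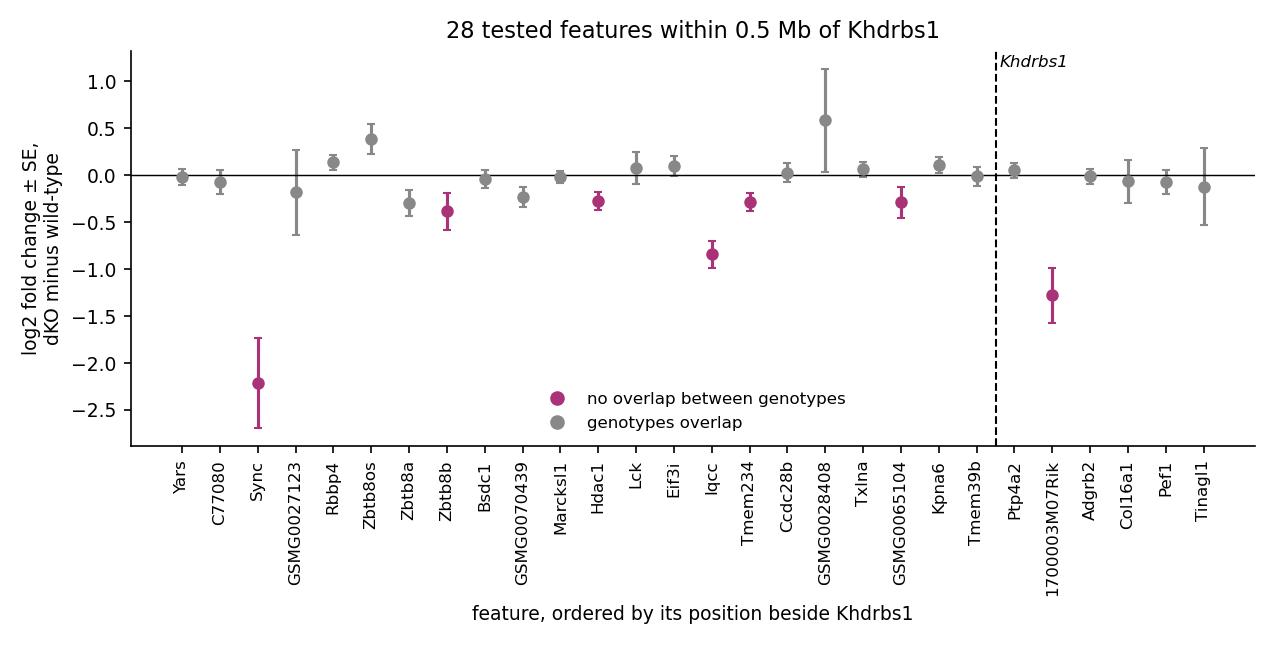
Log2 fold change (dKO minus wild-type) with its standard error (SE) from limma for the 28 tested members within 0.5 Mb, in the order of their positions, with the dashed line at *Khdrbs1*. Purple marks the 7 members whose genotypes do not overlap, all of which lie below 0, and most of the others lie near 0.

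The nearest tested gene on each side of *Khdrbs1* had levels that overlapped between the genotypes. Of the other near members, *Tmem234* (83.6 kb), *Iqcc* (84.1 kb) and *1700003M07Rik* (218.1 kb) were lower in dKO without overlap and are described below. *Tmem39b*, which encodes a membrane protein and lies 6.3 kb from *Khdrbs1*, had 847, 937 and 875 normalized counts in the wild-type embryos and 970, 848 and 828 in the dKO embryos, with a log2 fold change of -0.01 (SE 0.10). *Kpna6*, an importin alpha that carries proteins into the nucleus, had 4969 ± 333 in wild-type embryos and 5362 ± 416 in dKO (SD, n = 3 each), and its log2 fold change was 0.11. *Ptp4a2*, a phosphatase gene and the nearest tested feature beyond the start of *Khdrbs1* at 77.9 kb, had 12429, 13758 and 11904 in wild-type and 13128, 13437 and 12908 in dKO, a log2 fold change of 0.05 (SE 0.08). In each of these 3 genes the genotypes overlapped. The other near members with a symbol on this side, apart from *1700003M07Rik*, were *Adgrb2*, an adhesion receptor of neurons, the collagen gene *Col16a1*, *Pef1* and *Tinagl1*, with log2 fold changes from -0.12 to -0.01. *Txlna* and *Ccdc28b* had log2 fold changes of 0.07 and 0.03, and *Marcksl1*, an actin regulator with the highest level among the cytoskeletal members, had 94439 ± 2843 normalized counts in the wild-type embryos and 93187 ± 2687 in dKO (SD, n = 3 each).

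*Iqcc*, whose protein carries an IQ motif that binds calmodulin, had the smallest *P*-value of all members (chr4:129615626-129619093, 84.1 kb from *Khdrbs1*). It had 382, 508 and 417 normalized counts in the wild-type embryos and 251, 227 and 247 in the dKO embryos. Each dKO library was below the lowest wild-type library, at 55.5% of the wild-type mean, and the fitted log2 fold change was -0.84 (SE 0.14; limma adjusted p = 0.0900, 0.0994 from edgeR and 0.000271 from DESeq2, and at most 0.347 over the alternatives). *Iqcc* lies on the minus strand inside the span of *Tmem234*, which is on the plus strand and codes for a transmembrane protein, and 11.9% of its annotated exonic bases (378 of 3188) are also exonic in *Tmem234*. *Tmem234* (chr4:129600668-129619574) had 3357, 3595 and 3317 in wild-type and 2482, 2893 and 3071 in dKO, again without overlap, with a log2 fold change of -0.29 (SE 0.09; limma adjusted p = 0.345).

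The strand setting of the counting is not given in the sources used here, and without strand the reads of *Iqcc* and *Tmem234* cannot be told apart where exons are shared. The share of *Iqcc* in the sum of both was 11.3% ± 1.08 in wild-type and 7.97% ± 1.06 in dKO (SD, n = 3 each; p = 0.1 by a two-sided exact permutation test, which cannot go lower with 3 against 3). The shares did not overlap, and *Iqcc* had the larger relative difference of the pair. The part that shared reads have in either value was not tested. *Ccdc28b*, which also overlaps *Tmem234* and shares 15% of its exonic bases with it, had 1523, 1643 and 1703 against 1441, 1698 and 1850.

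*Hdac1*, a histone deacetylase of several repressor complexes, had 1100, 1053 and 1021 normalized counts in the wild-type embryos and 861, 839 and 929 in the dKO embryos (chr4:129516104-129542646, 160.5 kb). The genotypes did not overlap, and its log2 fold change was -0.27 (SE 0.09; limma adjusted p = 0.357). *Rbbp4*, a histone chaperone found with it in those complexes, lies 367.8 kb away and was not lower, with 11323 ± 716 in wild-type and 12484 ± 680 in dKO (SD, n = 3 each; log2 fold change 0.14). The genotypes overlapped in *Rbbp4*.

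*Sync* encodes syncoilin, an intermediate filament protein best known from muscle, and was named after its values were seen (chr4:129287616-129308559, 394.6 kb). It had 23.8, 23.6 and 30.7 normalized counts in the wild-type embryos and 4.54, 5.23 and 4.64 in the dKO embryos, which are 25, 22 and 35 against 5, 5 and 4 reads. The dKO libraries kept 18.4% of the wild-type mean, and *Sync* is among the 11 members that passed the filter through a single genotype, here wild-type, so that it had to differ and its values are a description. The log2 fold change was -2.21 (SE 0.48), and it ran from -2.44 to -1.28 over the alternatives. *Sync* shares 27.3% of its exonic bases with *Rbbp4*, which is on the other strand and whose genotypes overlapped.

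*1700003M07Rik*, a long intergenic non-coding RNA, is the member with the largest difference beyond the start of *Khdrbs1* within 0.5 Mb (chr4:129960373-129965137, 218.1 kb). It had 305, 281 and 220 normalized counts in the wild-type embryos and 97.1, 180 and 74.2 in the dKO embryos. All dKO libraries were lower than all wild-type libraries, with dKO replicate 2 closest to them. Its log2 fold change was -1.28 (SE 0.29; limma adjusted p = 0.230 and 0.00771 from DESeq2, the lowest of the alternatives, which reached 0.657). *Zbtb8os*, which encodes the tRNA ligase cofactor archease, was the 1 near member that was higher at an unadjusted *P*-value under 0.05 from limma, with 300.5, 388 and 292 in wild-type and 358, 455 and 466 in dKO. Its genotypes overlapped, and it shares 5.87% of its exonic bases with *Zbtb8a*, a zinc finger gene that had 469 ± 51.0 in wild-type and 382 ± 45.5 in dKO (SD, n = 3 each).

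**Figure D3:**
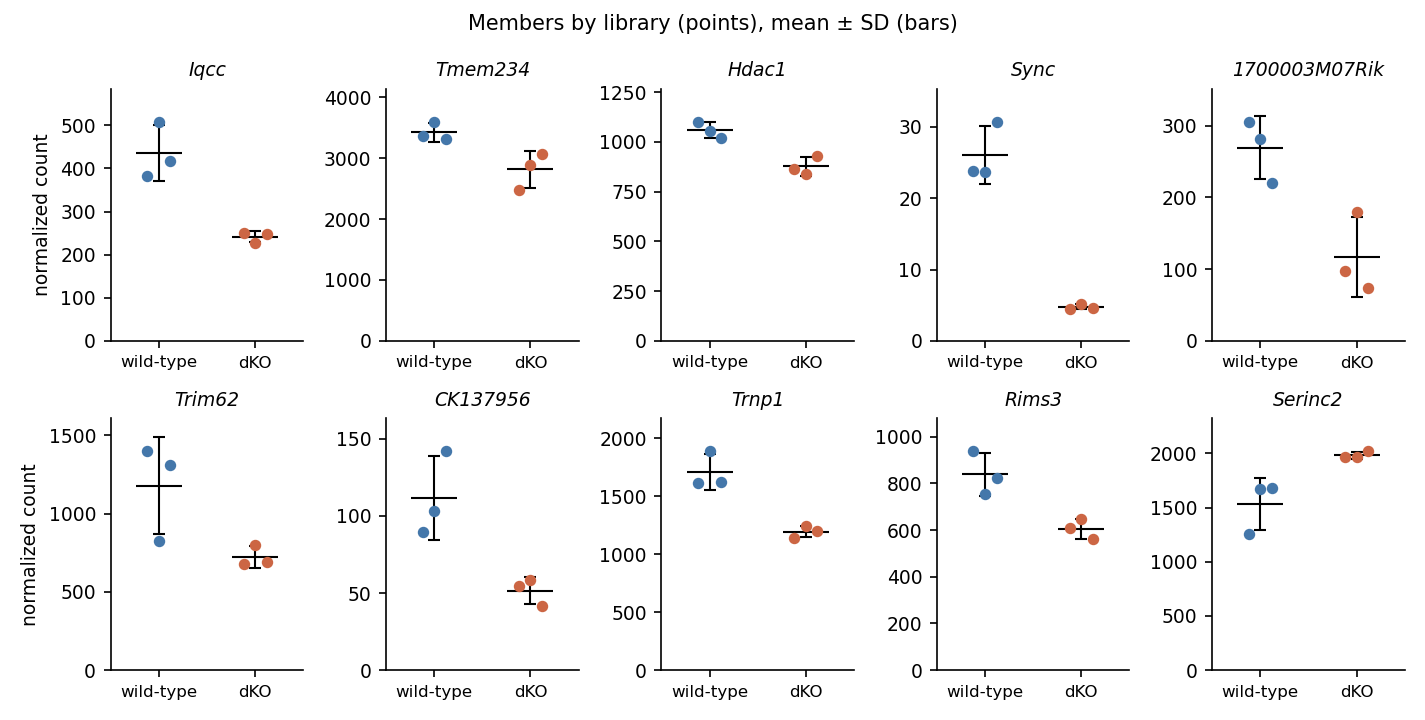
Normalized counts of 10 members in each library (points; 3 wild-type in blue, 3 dKO in orange) with the mean and SD of each genotype (bars), on axes that start at 0. In all 10 the genotypes do not overlap, 9 lie lower in dKO and *Serinc2* lies higher.

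Farther out, members without overlap were found in both directions. Among all features tested, 16.4% did not overlap, 7.89% as higher and 8.48% as lower in dKO. Between 0.5 and 1 Mb, 19 features were tested and 5 did not overlap, 3 higher and 2 lower in dKO. All 3 that were higher lie beyond the start of *Khdrbs1*, where they were 3 of 8 tested. Between 1 and 2.5 Mb, 6 of 22 did not overlap, 5 of them higher, and 4 of these 5 lie beyond the start. From 2.5 to 5 Mb, 12 were higher and 12 were lower without overlap among 117 tested, and from 5 to 10 Mb 8 were higher and 8 were lower among 116. The share without overlap was 20.5% and 13.8% in these outer bins. Of *P*-values under 0.005, 3 of 28 members had one within 0.5 Mb (10.7%) and 1 of 116 beyond 5 Mb (0.862%), against 1.6% of all features tested. The 3 near members include *Sync*, which passed the filter through wild-type alone and so had to differ. No test of the difference between distances was made, and the bins near the gene hold few features.

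**Figure D4:**
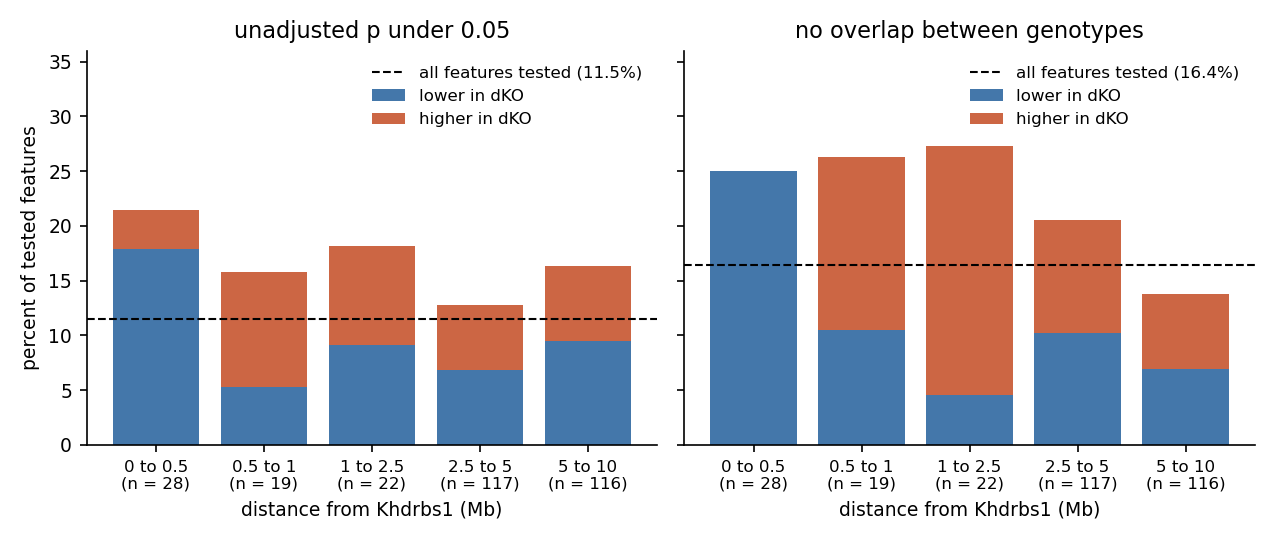
Percent of tested members with an unadjusted *P*-value under 0.05 from limma (left) and with no overlap between genotypes (right) in 5 bins of distance from *Khdrbs1* in Mb, with members lower in dKO in blue and higher in orange, the number tested under each bar and the share of all 18970 features as a dashed line. Without overlap, the 7 members of the nearest bin are all lower, and 5 of the 6 from 1 to 2.5 Mb are higher.

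*Trim62*, the gene of a ubiquitin ligase of the TRIM family, lies 791.8 kb away beyond the 3′ end of *Khdrbs1* and was named after its values were seen. It had 1400, 824 and 1312 normalized counts in the wild-type embryos and 680, 802 and 689 in the dKO embryos. Wild-type replicate 2 lay just above the highest dKO library and the other wild-type libraries far above it. Fitted over all 6, it had a log2 fold change of -0.67 (SE 0.18; limma adjusted p = 0.298 and 0.0138 from DESeq2, the lowest of the alternatives, which reached 0.713), and without wild-type replicate 2 it was -0.91 with an adjusted p of 0.0276 from limma. *CK137956* (1.73 Mb) had 89.4, 103 and 142 in wild-type and 54.5, 58.6 and 41.8 in dKO, a log2 fold change of -1.08 (SE 0.26; limma adjusted p = 0.242). Both lie on the same side as *Iqcc* and *Sync*.

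*Trnp1* encodes a nuclear protein known for its role in the expansion of cortical progenitors, and was named after its values were seen (chr4:133491100-133498550, 3.75 Mb beyond the start of *Khdrbs1*). It had 1616, 1890 and 1625 normalized counts in the wild-type embryos and 1143, 1243 and 1200 in the dKO embryos. The dKO libraries lay close together and all below wild-type, at 69.9% of the mean, and the log2 fold change was -0.51 (SE 0.09; limma adjusted p = 0.106, 0.134 from edgeR and 0.000958 from DESeq2, and at most 0.453 over the alternatives), and it stayed between -0.55 and -0.44 under the alternatives. Of the 6 progenitor markers, 3 were higher in dKO and 0 were lower at an unadjusted *P*-value under 0.05, and their part in the value of *Trnp1* was not tested.

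*Rims3*, a protein of the presynaptic active zone, lies 8.81 Mb away near the end of the window. It had 938, 756 and 824 normalized counts in the wild-type embryos and 608, 647 and 560 in the dKO embryos, without overlap, and a log2 fold change of -0.47 (SE 0.11; limma adjusted p = 0.252 and 0.0403 from DESeq2, the lowest of the alternatives, which reached 0.694). The unnamed feature GSMG0027060, which overlaps the chromatin gene *Meaf6* at 4.60 Mb, had 95.1, 83.8 and 104 in wild-type and 48.1, 52.3 and 40.6 in dKO, a log2 fold change of -0.99. The unnamed feature GSMG0068008 inside *Camk2n1*, an inhibitor of CaM kinase II, had 138, 139 and 118 against 101, 43.9 and 109, a log2 fold change of -0.73. *Camk2n1* itself had a log2 fold change of -0.18. *Aim1l*, which passed the filter through wild-type alone, had 26.6, 21.5 and 22.8 against 1.82, 18.8 and 0, where dKO replicate 2 was close to wild-type.

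Members with the largest positive log2 fold changes at a mean of at least 50, without overlap and at an unadjusted *P*-value under 0.05 from limma, were named next. *Rps15a-ps4*, a processed pseudogene of a ribosomal protein gene whose reads could come from near-identical copies, had 174, 210 and 193 normalized counts in the wild-type embryos and 236, 307 and 283 in the dKO embryos (log2 fold change 0.51). *Mycbp*, which encodes a MYC-binding protein, had 363, 358 and 339 against 434, 442 and 529 (0.40). *Serinc2*, a serine incorporator gene 511.2 kb from *Khdrbs1*, had 1259, 1668 and 1680 against 1968, 1965 and 2022 (0.38). In each of these 3 genes all dKO libraries lay above all wild-type libraries. *Rcc1*, the chromatin-bound exchange factor of Ran, and *Cdca8*, the borealin subunit of the chromosomal passenger complex, also did not overlap and had log2 fold changes of 0.37 and 0.35. The adjusted *P*-values of these 5 from limma ran from 0.323 to 0.360.

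The tested members were then grouped by function, and limma called no member of any list after adjustment, so counts are given at an unadjusted *P*-value under 0.05, which 4.92% of all features passed as higher and 6.58% as lower. Of 23 genes of RNA binding and processing, 3 were higher and 1 was lower. *Ago4* (541, 572 and 526 against 714, 685 and 659) and *Ago1* (5135, 5658 and 4912 against 6697, 5479 and 6479), 2 Argonaute proteins that carry microRNAs, were higher with log2 fold changes of 0.33 and 0.25, and the splicing factor gene *Sf3a3* was higher with 0.24. The third Argonaute gene of the cluster, *Ago3*, had 176, 169 and 181 in wild-type and 122, 147 and 130 in dKO and was lower (-0.40). *Sfpq*, a nuclear paraspeckle protein with the highest level of this list, had 32144 ± 2202 in wild-type and 33359 ± 5265 in dKO (SD, n = 3 each).

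Of 19 neuronal and synaptic genes, 4 were lower and 1 was higher, and their median log2 fold change of -0.26 was the lowest of the 8 lists. *Rims3* and *Rap1gap*, which switches off the small GTPase Rap1, were lower without overlap (log2 fold changes -0.47 and -0.28). *Epha8*, an ephrin receptor of axon guidance, had 910, 759 and 968 in wild-type and 506, 831 and 576 in the dKO embryos, where dKO replicate 2 lay within the wild-type range (-0.49). *Hpcal4*, a neuronal calcium sensor, was lower with -0.30. *Nkain1*, a partner of the sodium pump, had 21843 ± 306 in wild-type and 24577 ± 1160 in dKO (SD, n = 3 each) and was the 1 gene that was higher (0.17). Of the 8 projection neuron markers, 3 were higher and 0 were lower, and their part in these values was not tested.

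Of 9 genes on the list drawn up for the cell cycle and DNA replication, 3 were higher (*Cdca8*, *Rcc1* and *Exo5*) and 0 were lower. The list also holds *Gnl2*, *Ccdc28b* and *Sesn2*, and its median log2 fold change was 0.18. In 4 of the 9, *Cdca8*, *Rcc1*, *Gnl2* and *Clspn*, all dKO libraries lay above all wild-type libraries, as in 7.89% of all features. The unadjusted *P*-values of *Gnl2* and *Clspn* from limma were 0.0562 and 0.388. The 6 progenitor markers named above were also higher in sum, and their part in these values was not tested. Of 17 genes of cytoskeleton and adhesion, 2 were higher, *Phactr4*, a regulator of protein phosphatase 1 and actin (2218, 2068 and 2011 against 2780, 2396 and 2621), and *Wasf2*, an activator of branched actin (605, 586 and 627 against 784, 777 and 666). Among 21 chromatin and transcription regulators, *Kdm1a*, a histone demethylase, was higher (0.19) and *Hdac1* was lower, with a median of 0.11. Among 12 developmental transcription factors and growth factor genes, *Mycl* was higher (0.18), *Id3* and *Heyl*, targets of BMP and Notch signalling, were lower (-0.49 and -0.37), and the median was -0.14. Both *Id3* and *Heyl* overlapped between the genotypes.

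None of 10 genes of translation and proteostasis and none of 8 leukocyte and microglia genes passed this threshold, with median log2 fold changes of 0.04 and 0.05. *Rpl11*, a ribosomal protein, had 6413 ± 975 normalized counts in the wild-type embryos and 7191 ± 1054 in the dKO embryos (SD, n = 3 each). *Mul1*, a mitochondrial ubiquitin ligase, had 1812, 1851 and 1604 against 1907, 2042 and 2038, without overlap (log2 fold change 0.19). *Laptm5*, a lysosomal protein of leukocytes, had 536 ± 80.8 against 461 ± 47.3, and *Csf3r*, a cytokine receptor of myeloid cells, had 31.2 ± 10.6 against 51.7 ± 18.3 (SD, n = 3 each). Microglia markers, 6 of 6 tested and including the member *C1qa*, summed to between 1640 and 2321 in wild-type and between 1710 and 2055 in dKO.

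**Figure D5:**
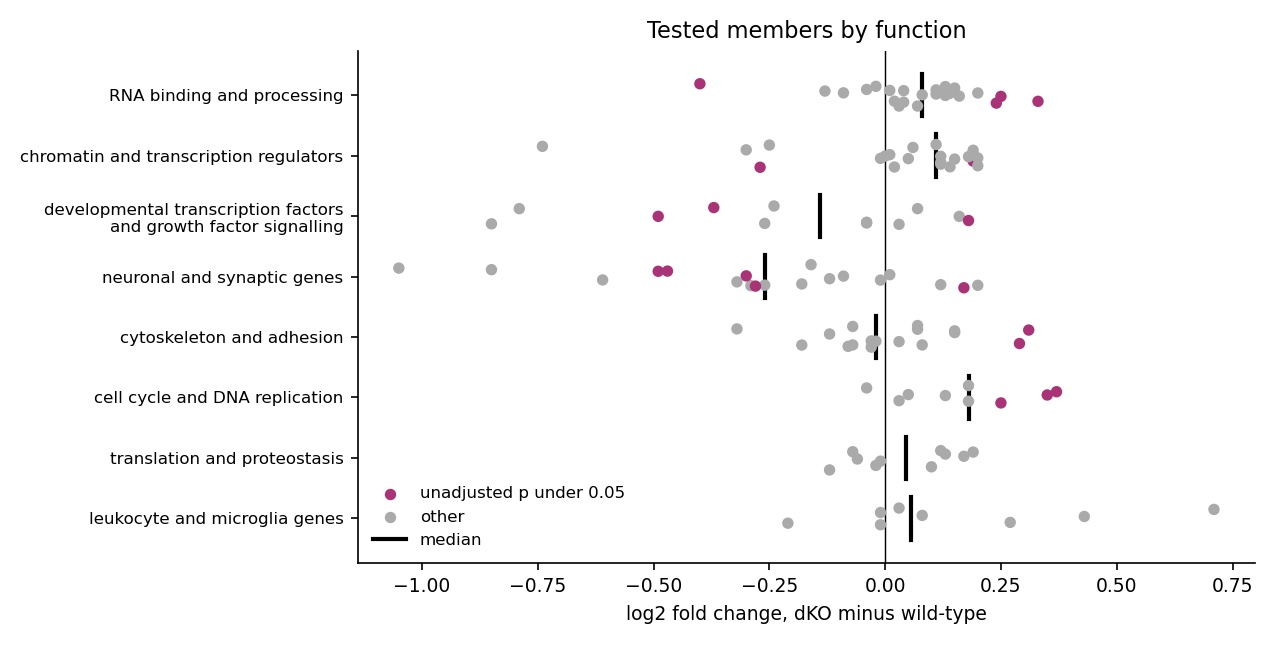
Log2 fold change (dKO minus wild-type) of each tested member of 8 function lists (points), with the median of the list (black bar) and purple points for an unadjusted *P*-value under 0.05 from limma. The neuronal and synaptic list has the lowest median (-0.26) and the cell cycle list the highest (0.18).

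Splicing targets listed by the study were counted in the window, since a change in an exon need not change the count of a gene. Of its genes with regulated splicing in the dKO embryos, which were chosen on these same samples and are not independent evidence, 10 are tested members. Among them are *Iqcc*, *Tmem234*, *Hdac1*, *Zbtb8os*, *Ccdc28b* and *Rlf*. In level, 3 of the 10 were lower (*Iqcc*, *Tmem234* and *Hdac1*) and 1 was higher (*Zbtb8os*) at an unadjusted *P*-value under 0.05 from limma, where all features gave 6.58% and 4.92%. The listed genes make up 3.94% of the 254 tested members with a symbol, 2.18% of the 14603 tested features with a symbol in the whole table and 2.28% of those on the rest of chromosome 4. Within 0.5 Mb of *Khdrbs1* they are 5 of 24, or 20.8% (*Zbtb8os*, *Hdac1*, *Tmem234*, *Iqcc* and *Ccdc28b*), from 0.5 to 2.5 Mb there are none among 16 and 18 tested, from 2.5 to 5 Mb there is 1 of 99, or 1.01%, and from 5 to 10 Mb they are 4 of 97, or 4.12%. Of these 5, *Iqcc* overlaps *Tmem234*, as does *Ccdc28b*, so that they may share reads and are not separate counts.

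Sam68 targets that the study lists from 3 other studies of Sam68 knockout brain or neural cells make up 29 of the 254 members with a symbol, or 11.4%, against 4.91% in the whole table and 4.25% on the rest of chromosome 4. Within 0.5 Mb they are 6 of 24, or 25.0%, from 0.5 to 1 Mb 3 of 16, from 1 to 2.5 Mb 1 of 18, from 2.5 to 5 Mb 10 of 99, or 10.1%, and from 5 to 10 Mb 9 of 97, or 9.28%. In level, 3 of the 29 were lower (*Tmem234*, *Hdac1* and *Rcan3*) and 0 were higher at an unadjusted *P*-value under 0.05 from limma, where all features gave 6.58% and 4.92%, with a median log2 fold change of -0.01. *Rcan3*, a regulator of calcineurin 5.67 Mb away, had 277, 285 and 305 normalized counts in the wild-type embryos and 218, 213 and 234 in the dKO embryos. On both lists are 3 members, *Tmem234*, *Hdac1* and *Rlf*. Whether the other studies used the same *Khdrbs1* allele is not given in the sources used here, and no test of these shares was made.

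On the rest of chromosome 4, 879 features were tested, of which 12.4% had an unadjusted *P*-value under 0.05 from limma and 18.0% did not overlap between the genotypes. In the same window around *Khdrbs3*, the gene of SLM2 on chromosome 15, 183 features were tested, with 12.6% and 17.5%. The values of the *Khdrbs1* flanks were 15.6% and 19.2%. DESeq2 called 4 of the 183 features around *Khdrbs3*, 11 of the 879 on the rest of chromosome 4 and 7 of the 302 members, against 1.07% of all features. After adjustment limma called 1 feature around *Khdrbs3*, 1 on the rest of chromosome 4 and 0 members, against 0.1% of all features. Around *Khdrbs3* no feature within 0.5 Mb reached the filter, so its nearest neighbours could not be set beside *Hdac1*, *Iqcc* and *Tmem234*. A *P*-value under 0.005 was found for 2.98% of the members, 1.59% of the rest of chromosome 4 and 4.92% of the *Khdrbs3* flanks.

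At the ends of the window, the first tested members inside were *Hivep3* (9.57 Mb, log2 fold change -0.04), a zinc finger transcription factor, and *Aldh4a1* (9.88 Mb, 0.06), a mitochondrial dehydrogenase. The first tested features outside were *Foxj3* (10.07 Mb, 0.18) and *4933427I22Rik* (10.18 Mb, -0.21), and the smallest limma adjusted p among these 4 was 0.532.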

How the data were processed

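PolyA+ RNA of E18.5 cortex from 3 wild-type and 3 dKO mice was sequenced in a 150 bp paired-end format after TruSeq Stranded mRNA preparation. The submitters' processing notes name STAR 2.7.5a, SAMtools, Picard, FastQC, DESeq2 and mm10, and the study had reads assigned to the genes of the FAST database by GenoSplice. The counting program and its strand setting are not given in the sources used here. The authors deposited the signal of each feature as a normalized count, its reads divided by a size factor of the library. Divided by the value of 1 read, 100.0% of values above 0 came out whole in every library (within 0.001 reads), which gave the reads back.

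Groups are the genotypes that the labels give. They were compared over all features with a mean of at least 10 with limma 3.58.1 in R 4.3.3 (log2 of normalized count + 1, with trend and robust), with Benjamini-Hochberg adjustment over all 18970 features with a threshold of 0.05. The fit was run on simulated counts with planted changes larger than those of most named members, so it does not show how well smaller changes are found. Distances run between the nearest ends of the spans. Alternatives were pseudocounts of 0.1 and 10, other filters, quantile normalization, TMM rescaling, limma without both options, recovered reads tested by the quasi-likelihood method of edgeR 4.0.16 or by DESeq2 1.42.0, a block for replicate number, subsets of features and the omission of single libraries. Python 3.11.15 with pandas 2.3.3 and numpy 2.4.6 was used for the rest.

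The members and gene lists were chosen with earlier results of these data known. Named were members with an adjusted *P*-value under 0.05, the 6 tested members with a symbol nearest on each side, the 5 largest rises and falls with a mean of at least 50, an unadjusted *P*-value under 0.05 and no overlap, the 2 smallest *P*-values and the highest mean of each function list, the members at the ends of the window, and the 3 smallest *P*-values of each list of the study. *Sync*, *Trim62* and *Trnp1*, which DESeq2 called, and the other named members outside this rule were chosen after their values were seen. Strands and exons came from GENCODE release M21, and upstream sequences, chosen where at most 30 of 250 bases are annotated as exonic, from RefSeq. Replicate numbers did not pair the samples. Splicing events were not analysed here.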

Additional observations from a re-analysis of the deposited data

How the results depend on the processing

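The count of members with an adjusted *P*-value under 0.05 was 0 from limma. It became 1 without the trend and robust options (*Sync*), 7 with DESeq2, 1 at a threshold of 0.1 (*Iqcc*) and 0 to 1 when single libraries were omitted, the 1 being *Trim62* without wild-type replicate 2. The count at an unadjusted *P*-value under 0.05, 47, fell to 9 at 0.005 and ran from 23 to 55 (without dKO replicate 3 and wild-type replicate 2, respectively), with 26 without wild-type replicate 1 and 29 without wild-type replicate 3. It was 34 without both replicates numbered 1. In the main fit 15.6% of the members and 11.5% of all features passed, and at 0.005 2.98% and 1.6%. The shares were 7.62% and 6.43% without dKO replicate 3, and 18.2% and 14.3% without wild-type replicate 2. They were 8.61% and 8.1% without wild-type replicate 1, and 9.6% and 7.35% without wild-type replicate 3. Without both replicates numbered 1, they were 11.3% and 9.37%. The count without overlap, 58, was 37 among features that overlap no other tested feature and ran from 74 to 111 with a library left out, where fewer values have to separate (91 without wild-type replicate 1, 111 without wild-type replicate 2, 97 without dKO replicate 1 and 108 without dKO replicate 2), and was 132 without both replicates numbered 1. The replicate numbers share no litter or batch in the labels. The deviations of same-numbered libraries correlated at 0.098, -0.228 and -0.079, so the block was not used. With the replicate block, 50 members (16.6%) had an unadjusted *P*-value under 0.05, against 12.2% of all features, and 0 an adjusted one.

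Reversals were confined, among the named members and the alternatives run, to 10 members with log2 fold changes between -0.12 and 0.05. Quantile normalization gave -0.08 for *Sfpq*, -0.01 for *Ccdc28b*, -0.03 for *Ptp4a2*, 0.02 for *Col16a1* and 0.06 for *Tinagl1*. Without both replicates numbered 1, the values were 0.06 for *Hivep3*, -0.05 for *Sfpq*, 0.03 for *Adgrb2* and 0.04 for *Col16a1*. Over the omission of single libraries, values ran from -0.08 to 0.04 for *Adgrb2*, -0.05 to 0.13 for *Ccdc28b*, -0.29 to 0.07 for *Col16a1*, -0.18 to 0.12 for *Hivep3*, -0.04 to 0.01 for *Marcksl1*, -0.19 to 0.01 for *Pef1*, -0.08 to 0.14 for *Sfpq*, -0.39 to 0.24 for *Tinagl1* and -0.08 to 0.03 for *Tmem39b*. The cause of these changes was not tested. With 3 libraries a genotype, no exact test of a single value can go below 0.1, and features near a mean of 10 rest on few reads.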
